A study of Drosophila melanogaster with 48 samples.

Results

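The 24 astrocyte TRAP libraries fell into 2 sets by how many genes they detected, and these sets are described here. For each library the counts of its 2 technical data sets were added up, and the number of genes expected to hold at least 1 count in a random draw of 6000000 gene counts was calculated, so that every library was compared at the same depth. Libraries with 11750 or more expected genes were called broad and the others narrow. By this rule 12 of the 24 libraries were broad and 12 were narrow, with 6 of each in each biological replicate. The measured counts chose the sets, so differences between broad and narrow libraries in the number of genes, or in the level of a gene whose detection differed between libraries, are a description, and calls counted among such genes support nothing. Tests were kept for what the rule had not used directly. These were genes detected alike in every library, tallies outside genes, and time points grouped by the breadth of 1 replicate and compared in the other. The levels of genes detected alike could still enter the rule through their share of the counts drawn.

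All libraries came from heads of flies of 1 genotype that carried elav-Gal80, eaat1-Gal4 and UAS-EGFP-L10a. The eaat1-Gal4 driver is active mainly in astrocytes and in some cortex glia, and elav-Gal80 blocks Gal4 in neurons. Flies were entrained to 12 h of light and 12 h of darkness, moved to constant darkness (DD), and frozen every 4 h from 0 to 44 h, so that each library stands for pooled heads of 1 time point in 1 of 2 independent crosses. No treatment or genotype differed between broad and narrow libraries, and neither the sex nor the age of the flies is given in the labels, which name adult brain as the tissue and astrocytes as the cell type.

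In TRAP, an antibody against the EGFP-tagged ribosomal protein L10a pulls down ribosomes of the driver cells with the mRNAs they are translating. RNA of other cells in the lysate can be carried along at low levels. Genes of the testis and of the male accessory glands, ejaculatory duct and ejaculatory bulb are textbook markers of organs that lie in the abdomen: the testis makes the proteins of sperm, and the other organs secrete the seminal fluid proteins and peptides that are passed to the female at mating. Oenocytes, which lie under the cuticle of the abdomen, make cuticular hydrocarbons, and the midgut secretes amylases and proteases.

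The broad libraries held 6496669 to 31941838 counts on genes and the narrow libraries 6371034 to 37267216. Some libraries stood apart. In the 28 h library of replicate 2, the 10 highest genes took 49.6% of the gene counts, and 47.0% of its tallies were reads that aligned to more than 1 place. The 28 h library of replicate 1 rests on its second data set, since its first held 91 counts. Both were narrow, and counts without each are given below. In the 16 h library of replicate 1, also narrow, 9.47% of the tallies were reads that aligned to more than 1 place. The other libraries of replicate 1 held 21.7% to 36.9% of such reads. Lower calls without this library are given below too.

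The broad libraries were expected to hold 12007 to 12681 genes (mean 12286) and the narrow libraries 9883 to 11414 (mean 10446), a difference of 1840 genes. The library just inside the limit was the 8 h library of replicate 2 with 12007 genes, and the one just outside was the 20 h library of replicate 1 with 11414. Of the difference, 495 genes came from the 9392 genes with a mean of at least 20 counts, which were the genes compared, and 1345 came from the 8166 genes below that mean. A gain in detection was shared by many genes: 1730 genes were found with a mean chance of detection higher by over 0.5 in broad libraries, 574 of them among the genes compared, and 1 gene was higher in narrow libraries by that margin.

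Breadth followed the time point in most cases. The libraries at 8, 24, 36, 40 and 44 h were broad in both replicates, and those at 0, 4, 16, 20 and 28 h were narrow in both. At 12 h only the library of replicate 2 was broad, with 12040 expected genes against 10305 in replicate 1, and at 32 h only that of replicate 1, with 12554 against 10105. Of the broad libraries, 9 of 12 came from the second day in DD (24 to 44 h), against 3 of 12 narrow libraries (exact permutation within replicates, two-sided p = 0.0441, p = 0.146 after Benjamini-Hochberg adjustment over the 7 tests of this kind). The test took the 2 libraries of a time point as separate, though they shared the day and, except at 12 and 32 h, the set. Its p value may therefore be too small. A test across replicates took its groups from 1 replicate and its values from the other. The value was still the number the rule uses, and 1 limit served both replicates. At the time points that were broad in replicate 1, the libraries of replicate 2 held 1160 more expected genes than at the others (exact permutation test, two-sided, p = 0.0606, n = 6 and 6). The same comparison with the replicates exchanged gave 1126 more genes (exact p = 0.0628). Both adjusted p values were 0.146. Breadth, day and time point can therefore not be told apart in most of these libraries.

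**Figure D1:**
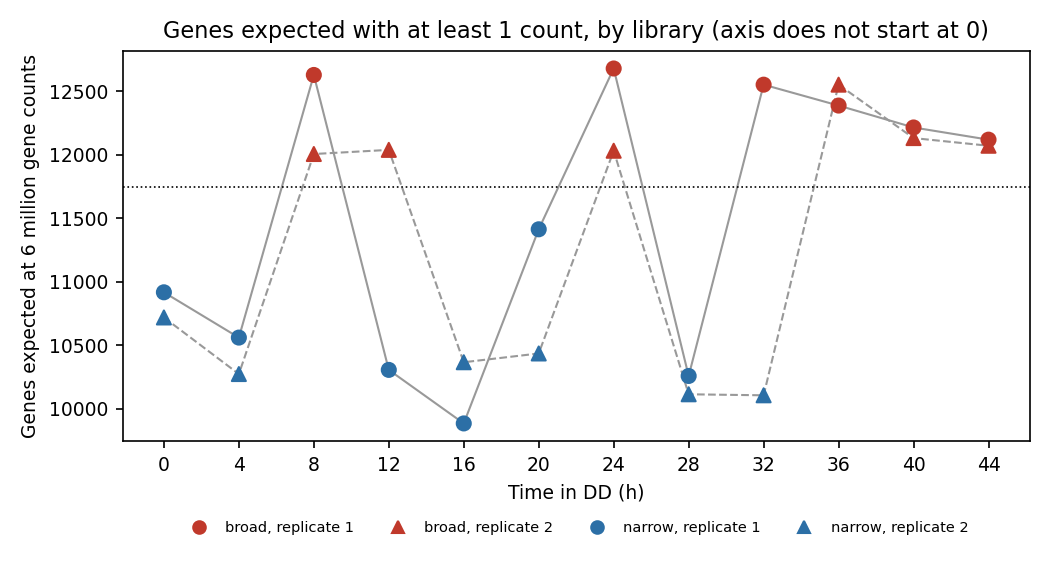
The number of genes expected with at least 1 count at 6000000 gene counts (y axis, not starting at 0) is plotted against hours in DD for each library, with circles for replicate 1, triangles for replicate 2 and a dotted line at the limit of 11750 genes. The 12 broad libraries sit between 12007 and 12681 and the 12 narrow ones between 9883 and 11414, and the replicates are on opposite sides of the limit at 12 h and 32 h.

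The technical data sets repeated the breadth of their library. At 1500000 gene counts the 2 data sets of a library differed by a median of 13.9 genes and by at most 78.7 genes (23 libraries), while the lowest data set of a broad library held 10611 expected genes and the highest of a narrow library 9793. In the labels, a letter follows the word for the TRAP sample, and its meaning is not stated. In replicate 1 all 6 broad libraries carried the letter a, and the narrow ones carried a (0 h), b (4, 12, 20 and 28 h) or, at 16 h, d in the first and e in the second data set. In replicate 2 every library carried c in one data set and g in the other, so there broad and narrow libraries had the same letters.

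Depth and the tallies of reads outside genes were not used by the rule. The gene counts of a library, on the log2 scale, ranged from 22.63 to 24.93 (median 23.98) in broad and from 22.60 to 25.15 (median 23.71) in narrow libraries, a mean difference of 0.17 (exact permutation within replicates, two-sided p = 0.572, and 0.801 after adjustment over the 7 tests). Reads that matched no annotated gene made up 0.738% to 3.14% (median 1.49%) of the tallies in broad libraries and 0.511% to 11.7% (median 1.51%) in narrow libraries (difference -0.577 percentage points, exact p = 0.980, adjusted 0.980). Without the 28 h library of replicate 2 the difference turned to 0.338 percentage points higher in broad libraries (exact p = 0.0393, not adjusted). Reads aligned to several places made up 4.03% to 36.9% (median 16.1%) and 3.92% to 47.0% (median 15.6%), a difference of -0.346 percentage points (exact p = 0.961) that turned to 3.30 without the same library (exact p = 0.0997). Reads that fell on more than 1 gene differed by 0.145 percentage points (exact p = 0.560). Each of these tallies overlapped between the sets.

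Among the 9392 genes compared, edgeR's quasi-likelihood test with biological replicate as a block called 1312 genes at a Benjamini-Hochberg adjusted p under 0.05 (14.0%), of which 1033 were higher (11%) and 279 lower (2.97%) in broad libraries. These calls fell into 2 kinds. For 7376 genes at least 1 count was practically certain at the common depth in every library, so that they added the same to each library's number. Their levels did not enter the rule directly, but could still enter it through their share of the counts drawn. Of these genes 357 were called (4.84%), and these calls are not independent of how the sets were chosen. The other 2016 genes entered the rule directly. Of the latter, 945 were called higher (46.9%) and 10 lower (0.496%), which the rule itself favours, and 671 of them (33.3%) had every broad library above every narrow library. The sizes were large: 867 of them were higher by over 2 on the log2 scale and 686 by over 4, with a median of 4.69 over the 945. Fitted differences of this size depend on how zero counts are handled. The filter of a mean of at least 20 counts was taken over all libraries. Of the genes compared, 997 had a mean under 20 counts in the narrow libraries and 18 in the broad libraries. More genes therefore passed the filter only through the broad libraries. This favours higher calls, so their excess over lower calls is no result.

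**Figure D2:**
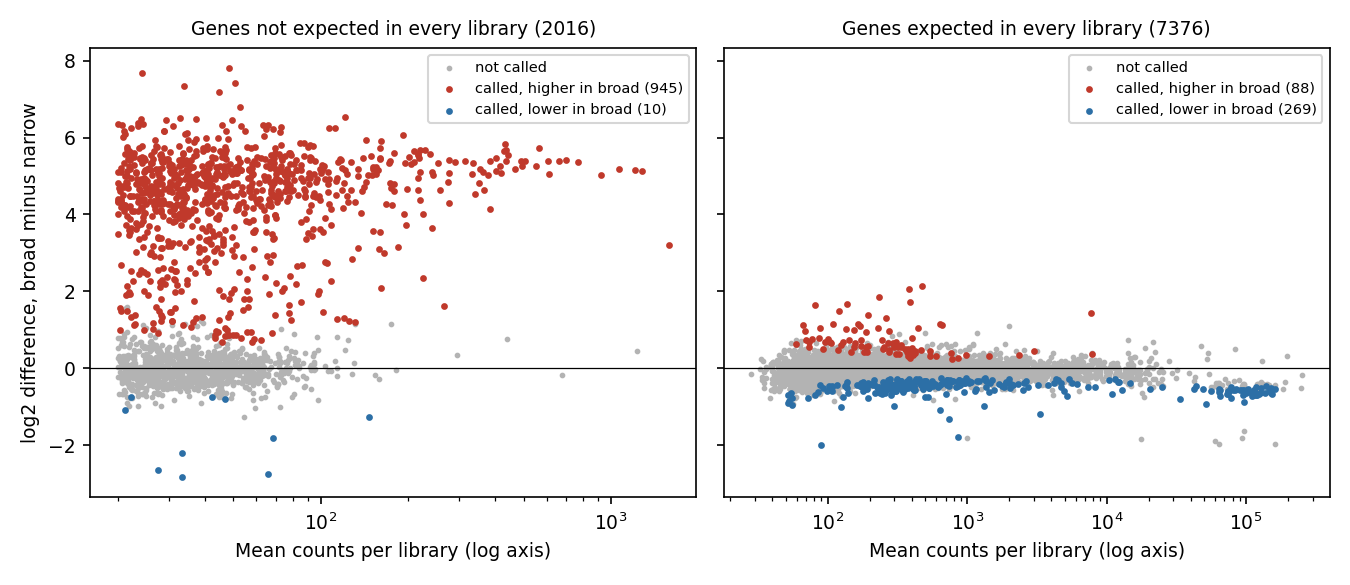
The log2 difference, broad minus narrow (y axis), is plotted against the mean counts per library (log axis) for the 2016 genes not expected in every library (left) and the 7376 genes expected in every library (right), with red for genes called higher and blue for genes called lower in broad libraries. In the left panel most of the 945 genes called higher lie between 4 and 6 on the log2 scale at means below 1000 counts, and in the right panel the 88 higher and 269 lower genes mostly lie within 1 of 0.

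The 867 genes higher by over 2 on the log2 scale together made up 0.324% to 1.77% (median 0.693%) of the gene counts of broad libraries, and 0.00899% to 0.0701% (median 0.0154%) of those of narrow libraries. Among the broad libraries their share was highest at 44 h of replicate 2 (1.77%) and 24 h of replicate 2 (1.15%), and lowest at 40 h of replicate 2 (0.324%). Among the narrow libraries it was highest at 20 h (0.0701%), 4 h (0.0612%) and 0 h (0.0607%) of replicate 1, while the other 9 were at or below 0.0268%. No library lay between 0.0701% and 0.324%. The 867 genes were chosen for being higher in broad libraries, so this gap follows from the choice and is no result. Of these 867 genes 149 could be paired with a symbol, and those described below were chosen from them for organs they are known from. Only 18.9% of the genes compared carried a symbol, so that the makeup of the rest is not described.

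Testis genes were present in every broad library and near absent from most narrow ones. Of 18 testis markers 4 could be paired and compared: Mst87F and Mst98Ca, which encode proteins of the sperm tail, betaTub85D, the beta-tubulin of the male germ line, and ocn (ocnus), a testis protein. Normalized CPM are CPM on the library size after TMM scaling. Summed over these 4 genes, the normalized CPM were 46.5 at the lowest, 107 at the median and 293 at the highest in broad libraries, and 0.501, 1.5 and 14.2 in narrow libraries. The sets did not overlap for any of the 4 genes. All 4 entered the rule, and 33.3% of the genes that entered it had no overlap, so nothing is read from that count. Mst98Ca held 329 to 2600 counts (median 813.5) in broad libraries and 0 to 193 (median 9) in narrow libraries, with 4 narrow libraries at 0. In normalized CPM it was at 23.0, 48.5 and 110 (lowest, median, highest) in broad and at 0, 0.579 and 5.86 in narrow libraries. ocn held 125 to 946 counts in broad and 0 to 49 in narrow libraries, of which 5 were at 0. A count of 0 leaves room for up to 0.0805 to 0.471 CPM (of gene counts), depending on the library (3 counts, counting error only).

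The time points at which the replicates differed in breadth showed the same contrast at 1 time of day. At 12 h the summed testis genes were at 2.43 normalized CPM in replicate 1 (narrow) and 104 in replicate 2 (broad). At 32 h they were at 164 in replicate 1 (broad) and 0.977 in replicate 2 (narrow). The 0, 4 and 20 h libraries of replicate 1 held 10.8, 12.7 and 14.2, above the other 9 narrow libraries, which held 3.70 or less.

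Genes of the sperm leucyl aminopeptidase family, abundant enzyme relatives stored in sperm, followed the testis genes, and this list too was chosen after values were seen. All 6 members compared (S-Lap1, S-Lap2, S-Lap3, S-Lap4, S-Lap7 and S-Lap8) entered the rule, and none overlapped between the sets, beside 33.3% of all genes that entered it. This is a description and no test. Their summed normalized CPM were 129, 376 and 740 (lowest, median, highest) in broad libraries and 0.349, 4.24 and 41.9 in narrow libraries. S-Lap1 alone held 673 to 5323 counts in broad and 4 to 408 in narrow libraries. These genes resemble each other, and reads shared between near-identical copies may have been assigned to either or dropped.

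Genes of spermatid formation and of the sperm tail gave the same picture. They were chosen after their values were seen, so their count carries no weight. loopin-1, a further member of the leucyl aminopeptidase family in sperm, was at 23.9 to 95.8 normalized CPM (median 66.6) in broad and at 0 to 7.04 (median 0.552) in narrow libraries. w-cup (world cup), transcribed late in spermatid formation, was at 2.74 to 38.7 (median 7.55) in broad libraries and at most 0.547 in narrow libraries, with a median of 0. fan (farinelli), needed in spermatogenesis, was at 3.77 to 20.5 against 0 to 0.759. Tektin-C, a filament protein of the axoneme, was at 1.13 to 7.61 against 0 to 1.64, and here 11 of the 12 broad libraries were above the highest narrow one.

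Seminal fluid genes, another list chosen after values were seen, behaved likewise. The 10 genes were those paired with a symbol of the accessory gland proteins (Acp), seminal fluid proteins (Sfp), ejaculatory bulb proteins (Ebp) and Dup99B, and all of them entered the rule. The sets overlapped for Sfp33A3 and not for the other 9, beside 33.3% without overlap among all genes that entered the rule, which is again a description. Their summed normalized CPM were 27.3, 70.3 and 150 in broad libraries and 0.0698, 2.40 and 9.88 in narrow libraries (lowest, median, highest). EbpII, a protein of the ejaculatory bulb, held 70 to 1077 counts in broad and 0 to 33 in narrow libraries. Dup99B, a peptide of the ejaculatory duct that acts on the mated female, held 29 to 680 against 0 to 30, with 6 narrow libraries at 0. Acp36DE, a glycoprotein needed for sperm storage, held 8 to 183 counts against 0 to 2, with 8 narrow libraries at 0.

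**Figure D3:**
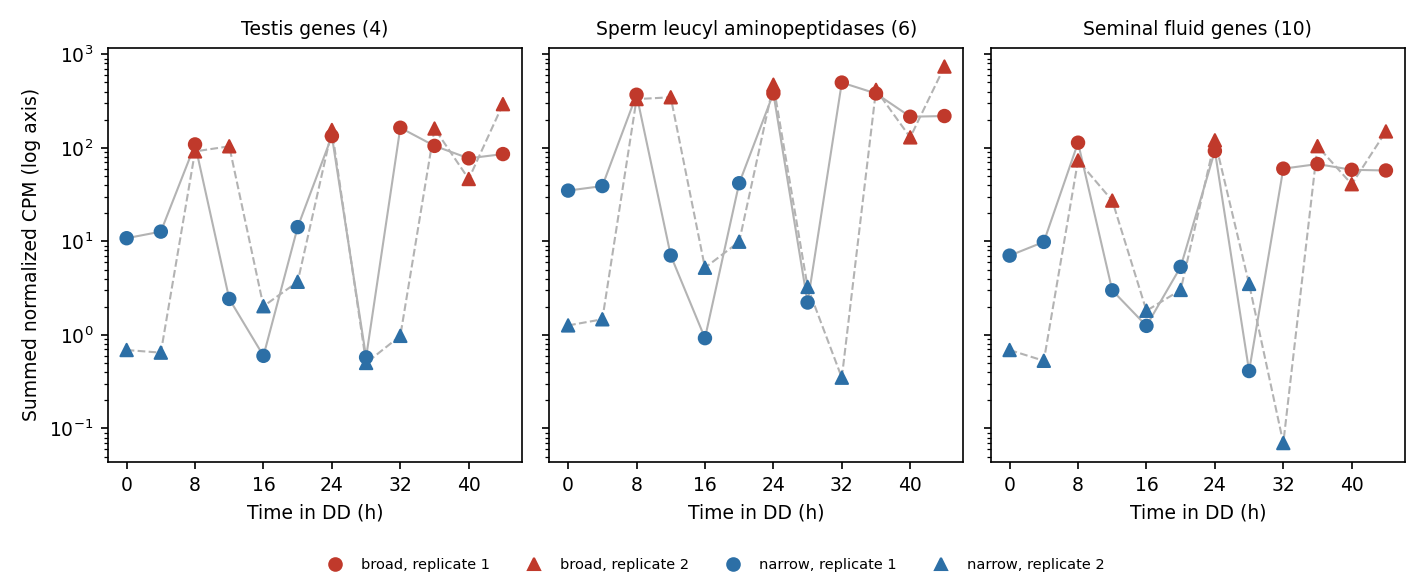
The summed normalized CPM (log axis) of 4 testis genes, 6 sperm leucyl aminopeptidase genes and 10 seminal fluid genes is plotted against hours in DD for each library, in red for broad and blue for narrow libraries, with circles for replicate 1 and triangles for replicate 2. In each panel all broad libraries lie above all narrow ones, from 46.5 against at most 14.2 for the testis genes, and the narrow 0, 4 and 20 h libraries of replicate 1 lie above the other 9 narrow libraries.

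A further group held second copies of genes that most cells use, 10 of which were described after their values were seen. Cyt-c-d, the cytochrome c of the male germ line, was at 2.37 to 14.9 normalized CPM (median 4.66) in broad and at 0 to 1.06 (median 0.249) in narrow libraries. Porin2, a relative of the mitochondrial porin, was at 3.91 to 27.3 (median 11.7) against 0 to 1.65 (median 0.285). COX6AL, a relative of a subunit of cytochrome c oxidase, was at 1.17 to 11.3 against 0 to 0.752, and knon (knotted onions), a relative of an ATP synthase subunit with a role in spermatid mitochondria, was at 1.16 to 10.9 against 0 to 0.449. RpL10Aa, a second gene for the ribosomal protein L10a, held 3 to 164 counts against 0 to 8, and 11 of 12 broad libraries were above the highest narrow one.

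Aconitase showed a pair that split. mAcon2, the second mitochondrial aconitase gene, was at 0.637 to 12.3 normalized CPM (median 4.09) in broad and at 0 to 0.748 (median 0) in narrow libraries. mAcon1, the aconitase of the citric acid cycle in most cells and a gene expected in every library, was at 223, 270 and 323 in broad and 244, 332 and 370 in narrow libraries (lowest, median, highest). These values overlapped, with a log2 difference of -0.28 (SE 0.09, edgeR adjusted p = 0.0246) that turned to 0.07 when libraries were scaled by their totals (adjusted p = 0.662).

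Single genes of oenocytes and of the gut were described in the same way, from lists chosen after values were seen. Cyp4g1, the P450 enzyme of the last step of cuticular hydrocarbon synthesis, was at 39.4, 89.5 and 547 normalized CPM in broad and 0, 11.1 and 58.1 in narrow libraries, and 9 of the 12 broad libraries lay above all narrow ones. Its highest values were in the 36 and 44 h libraries of replicate 2. FASN3, a fatty acid synthase of oenocytes, was at 1.27 to 7.18 in broad and 0 to 1.00 in narrow libraries, without overlap. Of 6 genes with the symbol of a digestive enzyme, 3 proteases entered the rule directly, where 46.9% of all genes were called higher, and the other 3 did not. Summed over the 6 genes, the sets overlapped, with 268 to 553 normalized CPM in broad and 178 to 486 in narrow libraries. The protease gene Phae2 held 14 to 320 counts in broad and 0 to 8 in narrow libraries. The protease genes Jon66Ci and epsilonTry peaked in a single library, the 40 h library of replicate 2, with 598 and 354 counts, where the testis genes were at their lowest among broad libraries. Jon66Ci held 0 to 65 counts in the other broad libraries and 0 to 9 in the narrow ones. Mal-B2, a maltase gene expected in every library, was at 226, 336 and 489 normalized CPM in broad and 167, 336 and 470 in narrow libraries (log2 difference 0.05, SE 0.12, adjusted p = 0.883).

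Within the 12 broad libraries, on the log2 scale, the summed sperm leucyl aminopeptidase genes varied with the testis genes (r = 0.959, rho = 0.986), the seminal fluid genes less closely (r = 0.675, rho = 0.720) and the oenocyte genes likewise (r = 0.724, rho = 0.601), while the digestive enzymes did not (r = -0.193, rho = -0.259). These are descriptions over 12 libraries. Within each library all sums come from the same RNA preparation, and the digestive sum is mostly Mal-B2. Fewer cells of a type, less RNA per cell and less RNA carried along from other cells in the lysate cannot be told apart in such samples. None of these was tested.

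Grouping the time points by the breadth of 1 replicate and comparing the libraries of the other replicate gave a test whose groups did not come from the libraries tested. Except at 12 h and 32 h, however, both replicates fell in the same set, so the groups nearly repeat the sets of the libraries tested. The test used 12 libraries each time. Grouped by replicate 1 and tested in replicate 2, none of the 9392 genes was called by edgeR, and 1327 (14.1%) had an unadjusted p under 0.05. Grouped by replicate 2 and tested in replicate 1, 5 genes were called (0.0532%) and 1688 (18.0%) had an unadjusted p under 0.05. The testis genes were higher at those time points in both directions of the test, but did not pass the test: Mst87F differed by 3.23 in replicate 2 and by 1.59 in replicate 1 on the log2 scale (adjusted p = 0.323 and 0.417), and Mst98Ca by 2.37 and 1.08 (adjusted p = 0.428 and 0.602). EbpII differed by 3.99 and 2.33 (adjusted p = 0.279 and 0.228). These genes entered the rule directly, so with groups that nearly repeat the sets their direction was largely fixed in advance. It is a description.

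The 7376 genes expected in every library differed far less. Much of this follows from how they were chosen, since a gene near absent from any library could not be among them. edgeR called 88 of them higher (1.19%) and 269 lower (3.65%) in broad libraries, with median log2 differences of 0.59 and -0.47 among the called genes. In 5 of them (0.0678%) every broad library was above every narrow library, and in none was every broad library below. Of the 5, exu and Amy-p carried a symbol. Another, FBgn0035047, has no symbol in the tables used and was at 25.5, 33.1 and 96.2 normalized CPM in broad and 5.26, 9.29 and 13.6 in narrow libraries (log2 difference 2.15, adjusted p = 5.19e-09). The lower calls depended on the processing. When these 7376 genes were fitted alone, 55 were called higher and 17 lower. When libraries were scaled by their totals, the median log2 difference of all 9392 genes shifted from -0.04 to 0.28 and the calls over all genes were 1629 higher and 11 lower. RLE scaling gave 1090 higher and 144 lower. Over all genes, 515 lower calls were made without the 16 h library of replicate 1, 484 without the 28 h library of replicate 2, 481 without the 20 h and 419 without the 32 h library of replicate 2, 428 without the 4 h and 377 without the 28 h library of replicate 1, but 185 without the 40 h library of replicate 1.

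Of the genes expected in every library and called higher, 9 carried a symbol. exu (exuperantia), needed for localization of mRNA in the oocyte and for spermatogenesis, was at 10.3, 18.4 and 39.1 normalized CPM in broad and at 3.14, 4.91 and 8.35 in narrow libraries (lowest, median, highest). The sets did not overlap. Its log2 difference was 1.85 (SE 0.22, edgeR adjusted p = 1.23e-07), and it was called without any 1 library (adjusted p up to 7.47e-07). Grouped by the other replicate, exu differed by 1.73 in replicate 2 and by 0.88 in replicate 1 (adjusted p = 0.272 and 0.243).

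Amy-p and Amy-d, which encode the amylases that digest starch, were both higher. Amy-p was at 15.5, 25.5 and 84.8 normalized CPM in broad and 3.56, 7.50 and 12.2 in narrow libraries, without overlap, with a log2 difference of 2.07 (SE 0.27, adjusted p = 6.39e-07). Amy-d was at 11.6, 16.4 and 34.1 against 6.56, 10.1 and 14.7, with 7 of 12 broad libraries above all narrow ones and a log2 difference of 0.98 (SE 0.19, adjusted p = 0.000210). The copies are near-identical neighbours on chromosome arm 2R (17118636 to 17120303 and 17124764 to 17126369, Release 6), so the split of reads between them is uncertain. The difference of each was 2.26 and 1.06 in replicate 2, and 1.18 and 0.69 in replicate 1, when time points were grouped by the other replicate (adjusted p 0.119 to 0.272).

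The other 6 were smaller in size or less stable. CG16972 was at 10.3 to 28.2 normalized CPM (median 14.7) in broad and 5.49 to 12.1 (median 7.44) in narrow libraries, with 10 of 12 broad libraries above all narrow ones (log2 difference 1.05, SE 0.15, adjusted p = 1.38e-06). CG42553 and CG9393 differed by 0.56 (SE 0.15) and 0.39 (SE 0.11), with adjusted p values of 0.0101 and 0.0102, and their sets overlapped. Mec2, a relative of stomatin, differed by 0.73 (SE 0.22, adjusted p = 0.0248) and was not called without the 16 h or the 36 h library of replicate 1 (adjusted p up to 0.0669). Bin1, a partner of the Bicoid protein, was at 7.98, 44.4 and 125 in broad and 9.37, 19.8 and 42.6 in narrow libraries (log2 difference 1.13, SE 0.36, adjusted p = 0.0300), and the kinesin gene neb (nebbish) at 3.71, 4.52 and 7.94 against 0.752, 2.97 and 6.08 (0.68, SE 0.22, adjusted p = 0.0386). Leaving out any 1 of 8 libraries ended the call of Bin1 and any 1 of 12 that of neb, with adjusted p values up to 0.0754 and 0.0741. With the time point as a factor, which compares only 12 h and 32 h, 1 of the 9 genes, CG16972, was still called. All 9 were called when libraries were scaled by their totals. When the 7376 genes were fitted alone 6 were called, and 6 with day as a covariate. Without replicate 1, 5 of the 9 were called, and without replicate 2, 5 were. None was called when time points were grouped by the other replicate. These last settings, from leaving out a replicate on, use 12 libraries each.

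Of 45 symbol-bearing genes called lower, the 10 of smallest p differed by -0.33 to -1.01 on the log2 scale. Mpcp2, a mitochondrial phosphate carrier, was at 870, 1159 and 1487 normalized CPM in broad and 998, 1579 and 2115 in narrow libraries (log2 difference -0.48, SE 0.11, adjusted p = 0.00202). jagn (jagunal), which shapes the endoplasmic reticulum, was at 10.6, 15.1 and 21.9 against 12.0, 23.3 and 31.1 (-0.52, SE 0.12, adjusted p = 0.00196). Drak, a kinase that acts on myosin light chain, was at 14.6, 17.8 and 25.1 against 18.5, 26.3 and 52.4 (-0.58, SE 0.14, adjusted p = 0.00387), with 6 broad libraries below all narrow ones. Edem1, which works in the degradation of misfolded glycoproteins, was at 11.9, 17.9 and 26.0 against 19.96, 23.3 and 29.7 (-0.40, SE 0.11, adjusted p = 0.00692), with 8 broad libraries below all narrow ones. The broad and narrow libraries overlapped in all 10 genes. The others were CG7627, CG2747, CG13305, CG32191, the ArfGAP gene CenB1A and RpL19. All 10 were called without any 1 library, and none when libraries were scaled by their totals, when the 7376 genes were fitted alone or with the time point as a factor. Without replicate 1, 2 of the 10 were called, and without replicate 2, 8 were. None was called when time points were grouped by the other replicate. These last settings use 12 libraries each.

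**Figure D4:**
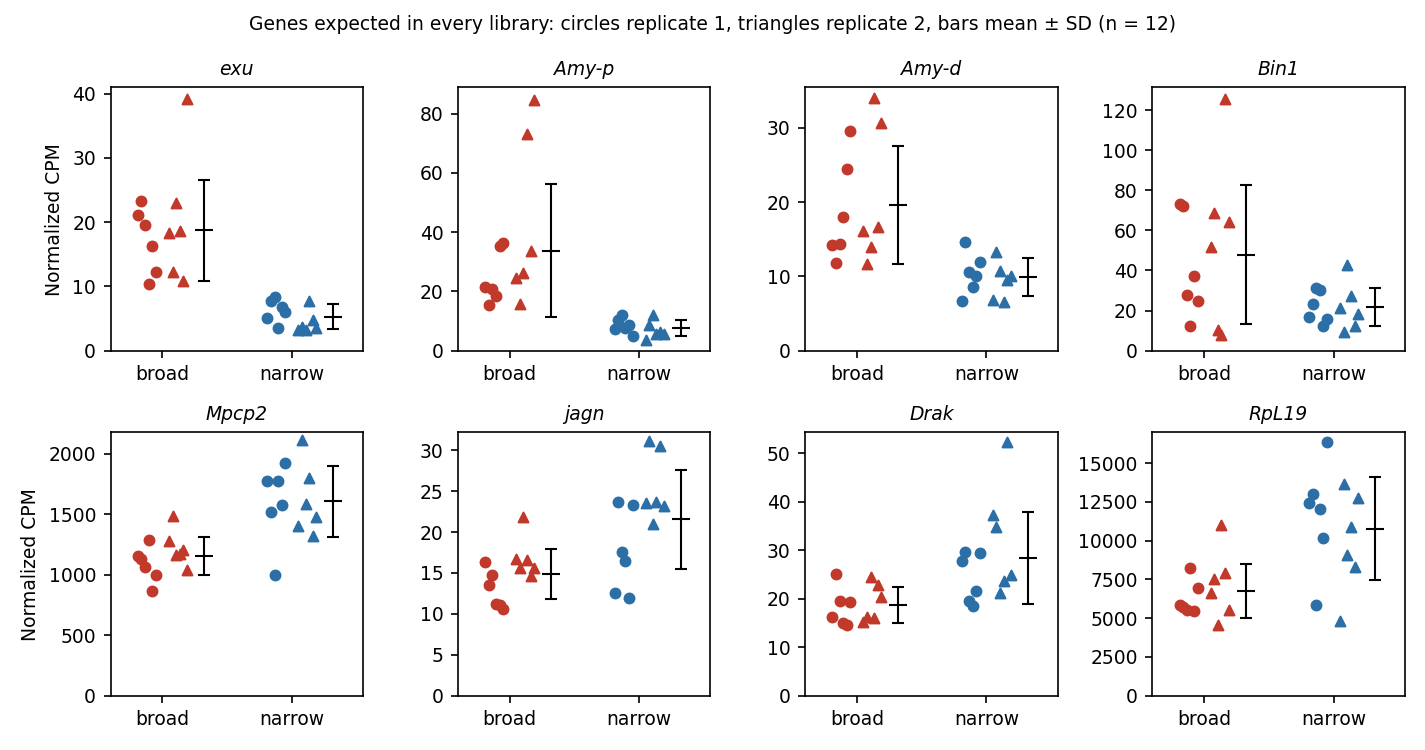
Normalized CPM (y axis, from 0) of 8 genes expected in every library is plotted for broad (red) and narrow (blue) libraries, with circles for replicate 1 and triangles for replicate 2, and with the mean ± SD of 12 libraries as a bar. exu and Amy-p have no overlap between the sets, while Amy-d, Bin1, Mpcp2, jagn, Drak and RpL19 do.

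Cytoplasmic ribosomal protein genes tended to be lower in broad libraries but few passed the test. Of 15 paired genes, 14 were expected in every library, and 4 of these were called lower (RpL19, RpS10b, RpS23 and RpS3) and none higher, against 3.65% lower among all such genes. Their median log2 difference was -0.46, beside -0.07 for all genes expected in every library. The summed level of the 15 genes was 47479 to 99212 normalized CPM in broad and 47472 to 127154 in narrow libraries, which overlapped. Genes this abundant take a share of the counts drawn, so their level can itself lower the number of expected genes. Scaling mattered too: with library totals, lower calls over all genes fell from 279 to 11, and RpL19 was not called. RpL19 was at 4572, 6257 and 10998 normalized CPM in broad and 4797, 11467 and 16383 in narrow libraries, which overlapped (log2 difference -0.67, SE 0.18, adjusted p = 0.00824). The difference of RpL19 was -0.90 within replicate 1 and -0.47 within replicate 2, and -0.88 and -0.17 when time points were grouped by the other replicate (adjusted p = 0.0993 in replicate 1 and 0.828 in replicate 2).

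Photoreceptor genes are a check for RNA of eye cells. Of 6 paired genes, all expected in every library, 2 were called lower and none higher, beside 3.65% lower and 1.19% higher among all such genes. With 6 genes nothing is read from that count. Arr1, an arrestin that ends the light response, was at 503, 716 and 910 against 587, 786 and 1506 normalized CPM (log2 difference -0.38, SE 0.12, adjusted p = 0.0378), and Rh5, a blue-sensitive rhodopsin, at 40.6, 48.1 and 79.4 against 39.3, 70.4 and 85.8 (-0.38, SE 0.13, adjusted p = 0.0449). Both overlapped. Rh6, another rhodopsin, did not pass (-0.17, SE 0.22, adjusted p = 0.733).

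Genes of astrocytes and other glia included no called gene. The driver labels mainly astrocytes and some cortex glia, so this list is wider than the driver cells. Of all genes expected in every library 4.84% were called, and 0 of 8 is not told apart from that share. The 8 genes paired of 20 markers (among them Gabat, a GABA transaminase, Eaat2, a transporter of acidic amino acids, e, the enzyme that makes beta-alanyl conjugates, and Tret1-1, a trehalose transporter) had a median log2 difference of -0.22 and a summed level of 320 to 432 normalized CPM in broad and 359 to 501 in narrow libraries. Eaat1, alrm, Gat and repo, the defining markers, were not among the genes paired with a symbol. The lists for neurons (2 genes), muscle (2), fat body (3), hemocytes (1), antenna (2), the clock (6), heat shock (1), mitochondrial ribosomal proteins (13), the proteasome (3) and translation factors (4) held no called gene either, and are too short to set against the 4.84%. tim, a clock repressor, was at 42.3, 161 and 320 in broad and 13.8, 79.9 and 375 in narrow libraries (log2 difference 0.31, SE 0.47, adjusted p = 0.785). In the list of the respiratory chain, none of the 17 genes expected in every library was called, and the 2 called higher, COX6AL and UQCR-11L, are second copies. The male-specific RNA of dosage compensation roX1 was at 7.53, 17.4 and 45.7 against 4.66, 11.3 and 28.2 (0.56, SE 0.25, adjusted p = 0.148).

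The 2 replicates repeated the contrast for one kind of gene and not for the other. Across the 2016 genes not expected in every library, the log2 difference in replicate 1 went with that in replicate 2 (r = 0.917, same sign in 72.7%), which the rule favours. Across the 7376 genes expected in every library there was no such relation (r = -0.0370, same sign in 49.3%). Genes are not independent replicates, and these values are a description. The difference between replicates in the contrast was itself called for 211 genes (2.25%), 148 of them expected in every library. Within replicate 1 alone, edgeR called 1167 genes higher and 615 lower, and within replicate 2 alone 955 higher and 93 lower.

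**Figure D5:**
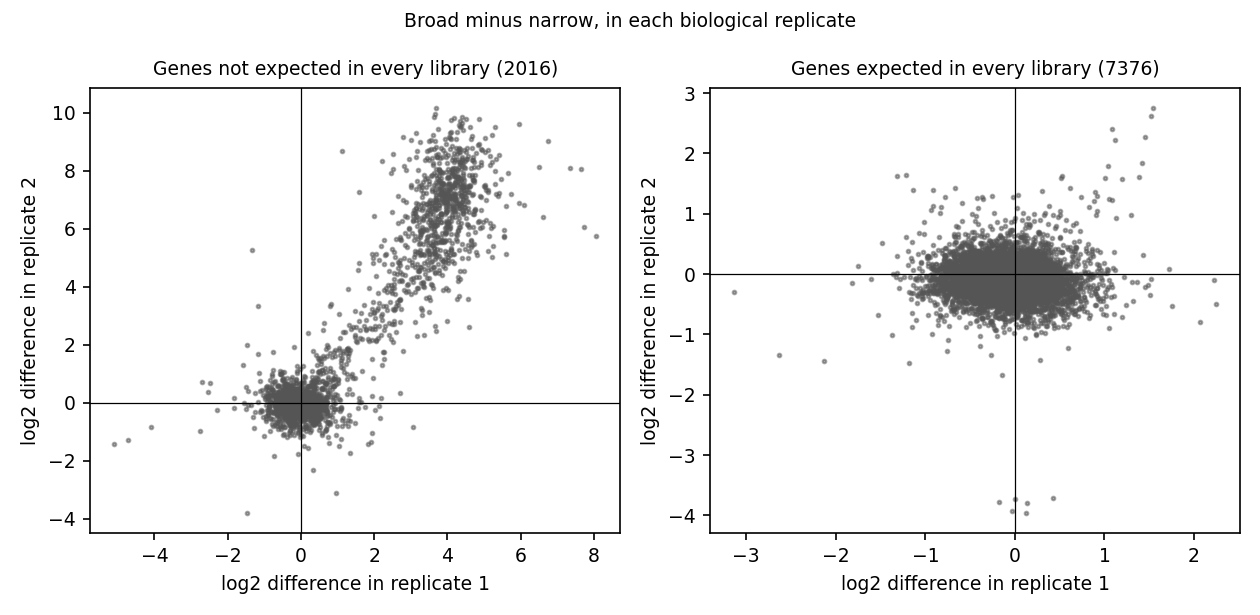
The log2 difference, broad minus narrow, in replicate 2 (y axis) is plotted against that in replicate 1 (x axis), with 1 point per gene, for the 2016 genes not expected in every library (left) and the 7376 genes expected in every library (right). The left panel shows a cloud around 0 and a second cloud of genes higher in both replicates (r = 0.917), and the right panel shows a cloud around 0 without a slope (r = -0.0370).

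Since breadth and time of collection overlapped, the comparisons of time were also fitted with breadth as a covariate. The fit of a 24 h cosine and sine called 55 genes (0.586%) without it and 50 (0.532%) with it, 42 of them in both fits. The second day against the first gave no call by edgeR in either fit, with 1261 genes at an unadjusted p under 0.05 without breadth and 670 with it. With day as a covariate, the comparison of broad with narrow libraries called 990 genes higher and 192 lower.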

How the data were processed

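Per the labels and the methods, the authors aligned single-end reads to Release 6 (BDGP6) with Tophat 2.0.9 and tallied them with HTSeq 0.6.1. The deposited files hold raw counts per gene, unfiltered, and HTSeq's tallies of other reads, for 48 data sets (2 technical data sets of each of 24 libraries). The strand setting and counting mode are not given in the sources used here.

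Technical data sets were added up. Rows outside genes were kept out of gene totals. Expected genes were computed with the hypergeometric formula. Genes with a mean of at least 20 counts were fitted with edgeR 4.0.16 in R 4.3.3 (TMM, glmQLFit, glmQLFTest, replicate as a block since the replicates are independent crosses). SE is the log2 difference divided by the root of F. Single values used exact permutation within replicates (853776 orders). Alternatives used DESeq2 1.42.0, limma 3.58.1 and other settings. In simulated data of 9392 genes for the broad against narrow comparison, 91% of genes changed by 1 log2, 41% changed by 0.5 and 0.0653% of unchanged genes were called. The simulation changed 100 genes by each size, up and down alike, and held no replicate or time point effect. The real data held many genes shifted in 1 direction, so these rates need not carry over to them.

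Libraries differed in depth from 6371034 to 37267216 gene counts, which sets the floor of 3 counts given in the report. The libraries of a set differ in time point, so p values measure the spread between these libraries only.

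Symbols came from the study's tables and RefSeq (Release 6), which paired 1778 of the 9392 genes. The sets, gene lists and tests were chosen with earlier results of these data known. The genes named were the 10 of smallest p in each direction (9 higher) among called genes with a symbol and expected in every library, and the 3 of highest mean count of each list. The lists of sperm leucyl aminopeptidases, spermatid proteins, seminal fluid, digestive enzymes, oenocytes and second copies, and other members named, were chosen after their values were seen.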

Additional observations from a re-analysis of the deposited data

Results flagged for a closer look

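In 7 of 100 groups of 6 libraries examined, 1 library lay far from the other 5. Chance alone marks about 1 group in 20 (5%).

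The 36 h library of replicate 2 had more expected genes (12554) than the other broad libraries of that replicate (12007 to 12133). The 28 h library of replicate 2 stood apart from the other narrow libraries of that replicate in 3 measures. It had 11.7% of its tallies outside annotated genes (0.511% to 1.44% in the others), 47.0% in reads aligned to several places (3.92% to 7.33%), and 49.6% of its gene counts in its 10 highest genes (11.2% to 13.7%). The kinesin gene neb was at 6.53 normalized CPM in the 36 h library of replicate 1, against 3.71 to 4.52 in the other broad libraries of replicate 1. The gene jagn was at 21.9 in the 24 h library of replicate 2, against 14.7 to 16.7. Mpcp2 was at 998 in the 12 h library of replicate 1, against 1523 to 1924 in the other narrow libraries of replicate 1.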

How the results depend on the processing

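The 1312 calls of broad against narrow libraries became 3379 with genes of a mean of at least 1 count, 277 with a mean of at least 100 counts, 72 when only genes expected in every library were fitted, and 659 with the time point as a factor. They became 0 with time points grouped by replicate 1 and tested in replicate 2, and 5 with the replicates exchanged, 2 settings chosen after seeing the data that use 12 libraries each. Without the replicate block 1165 genes were called. Leaving out 1 library at a time gave 1197 to 1534 calls, leaving out a whole replicate gave 1048 (without replicate 1) and 1782 (without replicate 2), and DESeq2 called 1320 and limma-voom 1342. Moving the limit by 250 genes, or ranking libraries at 3000000 counts or without their 10 highest genes, changed no library's set. Leaving out a replicate moved the difference in reads outside genes from -1.62 (without replicate 1) to 0.468 percentage points (without replicate 2), that in reads aligned to several places from -6.55 to 5.85, that in reads on several genes from 0.0246 to 0.265, and that in log2 gene counts from -0.171 (without replicate 1) to 0.517. Without the 28 h library of replicate 2, the first of these differences turned to 0.338 and the second to 3.30. Among the genes named, the direction turned for CG32191 (0.00469) and mAcon1 (0.0713) with libraries scaled by their totals, and for Mec2 (-0.100), Mpcp2 (0.0519) and CG2747 (0.0297) with the time point as a factor. The cause was not tested. Over the alternatives, 380 of 458 values of the 9 genes named as higher and 444 of 510 of the 10 named as lower kept direction and call. Low counts limit part of the comparison: 997 of the genes compared had a mean under 20 counts in the narrow libraries and 18 in the broad libraries, while the gene counts of the sets overlapped.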
